A study of Mus musculus with 20 samples.

Results

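The 51 genes described here are Ifnb1, which encodes interferon-β, and antiviral effectors and GTPases that interferon is known to induce. They were chosen by symbol with earlier results of these data known, so their shares against all genes below are descriptive. Of the 51, 50 had a row among the 21963 rows of the count table. Mx2 was not analysed here. RNA was sequenced from bone marrow-derived macrophages (BMDMs) of WT and Mcu-/- mice aged 15 to 25 weeks, in which bone marrow cells had been differentiated in medium conditioned by L929 cells. Mcu encodes the pore of the mitochondrial Ca2+ uniporter, and in these mice it is deleted by a Cre recombinase expressed from the Cx3cr1 gene, which is active in myeloid cells. The libraries were 4 WT untreated, 5 WT with zymosan for 3 h, 4 WT loaded with 10 µM BAPTA-AM and given zymosan for 3 h, 4 Mcu-/- untreated and 3 Mcu-/- with zymosan for 3 h. Zymosan is a preparation of yeast cell wall that macrophages take up and sense, and BAPTA-AM is a Ca2+ chelator that enters cells. The comparisons ask how these genes respond to zymosan, and how their levels differ when mitochondrial Ca2+ uptake is lost or when cytosolic Ca2+ is buffered.

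Interferon-stimulated genes are switched on in steps. Pattern receptors first drive transcription of Ifnb1 and of a few targets directly through the factor IRF3, and secreted interferon-β then acts on its receptor, made of IFNAR1 and IFNAR2, which leads transcription factors to an element called the ISRE in the promoters of its targets. Interferon-γ acts mainly through another element, called GAS. The products block viruses and intracellular microbes in many ways. IFIT proteins bind foreign RNA, OAS enzymes activate RNase L, and the helicases encoded by Ddx58 and Ifih1 (RIG-I and MDA5) sense viral RNA. Viperin (Rsad2) makes a nucleotide that stops viral polymerases, and tetherin (Bst2) holds budding virions at the cell surface. Guanylate-binding proteins (Gbp genes) and immunity-related GTPases (Irgm1, Irgm2, Igtp and Ifi47) take part in the defence against pathogens held in vacuoles.

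The promoters of 41 members were found by symbol in RefSeq (GRCm38.p6), each as a window from 250 bases before the annotated start to 50 bases after it. Oas2, Dhx58, Zbp1, Ifi204, Mx1, Mx2, Gbp4, Usp18, Parp14 and Rtp4 were not matched. The ISRE core was searched as GAAA, any 2 bases and GAAA, the GAS core as TTC, any 3 bases and GAA, and the kappa B core as GGGA, any base and TTTCC, on both strands. The ISRE core was held by 20 of the 41 members (48.8%), against 3.99% of all 27025 genes in the table and 3.44% of all 32851 windows. The GAS core was held by 11 members (26.8%) against 9.55% of all genes, and the kappa B core by 1 member, Gbp5, against 0.466% of all genes. Among the guanylate-binding and immunity-related GTPases, Gbp2, Gbp3, Gbp5, Gbp7, Irgm1, Irgm2 and Igtp held an ISRE core, and Gbp5, Gbp7, Irgm2 and Igtp held a GAS core as well. The sequences below are the 200 bases before the start of 7 members on which the results turn: the cytokine gene, 3 genes that were higher in untreated Mcu-/- BMDMs (Ifit1, Rsad2 and Gbp5), a GTPase gene that was lower, among BMDMs with zymosan, both with BAPTA-AM and in Mcu-/- (Gbp2), and 2 genes with high levels in Mcu-/- BMDMs with zymosan (Ifi44 and Bst2). Capitals mark matches to any of the 3 cores.
Ifnb1 (chr4:88522795-88522994, minus strand): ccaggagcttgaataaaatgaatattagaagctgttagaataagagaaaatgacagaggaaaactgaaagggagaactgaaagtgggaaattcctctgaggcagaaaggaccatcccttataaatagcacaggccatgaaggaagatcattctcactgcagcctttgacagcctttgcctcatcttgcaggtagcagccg
Ifit1 (chr19:34640689-34640888, plus strand): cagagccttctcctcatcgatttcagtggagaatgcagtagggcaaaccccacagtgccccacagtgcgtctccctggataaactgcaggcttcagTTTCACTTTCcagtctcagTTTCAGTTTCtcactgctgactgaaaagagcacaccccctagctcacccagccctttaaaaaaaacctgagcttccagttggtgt
Rsad2 (chr12:26456453-26456652, minus strand): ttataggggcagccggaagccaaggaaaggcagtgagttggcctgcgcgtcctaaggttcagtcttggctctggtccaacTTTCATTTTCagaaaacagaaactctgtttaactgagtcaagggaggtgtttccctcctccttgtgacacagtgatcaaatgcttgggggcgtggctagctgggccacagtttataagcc
Gbp2 (chr3:142620463-142620662, plus strand): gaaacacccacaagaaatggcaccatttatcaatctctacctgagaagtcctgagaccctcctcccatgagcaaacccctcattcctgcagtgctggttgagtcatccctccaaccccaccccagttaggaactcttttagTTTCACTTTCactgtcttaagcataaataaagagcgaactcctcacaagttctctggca
Gbp5 (chr3:142496734-142496933, plus strand): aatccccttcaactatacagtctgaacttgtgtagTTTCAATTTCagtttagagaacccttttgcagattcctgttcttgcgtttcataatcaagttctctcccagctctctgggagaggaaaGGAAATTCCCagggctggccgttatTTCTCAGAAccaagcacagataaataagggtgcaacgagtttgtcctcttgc
Ifi44 (chr3:151749911-151750110, minus strand): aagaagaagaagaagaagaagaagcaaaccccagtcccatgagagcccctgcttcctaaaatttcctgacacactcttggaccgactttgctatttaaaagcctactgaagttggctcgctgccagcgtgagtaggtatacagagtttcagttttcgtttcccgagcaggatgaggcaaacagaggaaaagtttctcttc
Bst2 (chr8:71537473-71537672, minus strand): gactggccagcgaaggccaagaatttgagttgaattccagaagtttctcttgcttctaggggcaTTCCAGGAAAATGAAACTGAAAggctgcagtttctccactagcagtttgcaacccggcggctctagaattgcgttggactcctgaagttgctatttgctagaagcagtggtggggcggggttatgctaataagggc
Ifit1 held 2 ISRE cores, which begin 104 and 85 bases before the start. Bst2 also held 2, which overlap each other, and the first of them overlaps a GAS core. In Gbp5 the ISRE, kappa B and GAS cores begin 165, 77 and 52 bases before the start, without overlap. The printed stretches of Ifnb1 and Ifi44 held no match to these exact patterns. Sites that differ from the patterns in a letter or in spacing were not searched, so such sites may be present there and in other members. A match is a description of the letters and not evidence of binding.

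Total counts were 14.42 to 23.95 M per library, so that 1 count was worth 0.0355 to 0.0635 CPM. Levels below are in CPM, counts relative to the library size as scaled by the TMM method. Mcu was at 6.10 to 9.55 CPM in the 13 WT libraries and 2.63 to 4.05 CPM in the 7 Mcu-/- libraries. Untreated Mcu-/- replicate 4 stood apart from the other replicates of its group. The mean chi-square per gene was 206 to 214 between it and replicates 1 to 3, whereas it was 1.60 to 6.24 in all other pairs of replicates. It was therefore left out of the fit of the remaining 19 libraries and is shown apart. The number of members that pass the main test in each comparison is also given with it. Other counts are given with it only where stated. Macrophage markers were abundant in every library, and their levels separated replicate 4 and the 3 Mcu-/- zymosan libraries from the rest. The summed level of 8 markers was 13351 to 14776 CPM in WT untreated and Mcu-/- untreated 1 to 3, and 14319 to 16390 CPM in WT with zymosan, with or without BAPTA-AM. It was 8568 CPM in Mcu-/- untreated 4 and 10410 to 10773 CPM in Mcu-/- with zymosan. The sum does not stand for each marker. In Mcu-/- against WT with zymosan, 5 of the 8 were called higher and 3 lower, against 36.4% and 33.7% of all genes. Within that sum, Itgam (the integrin CD11b) was at 238 CPM in Mcu-/- untreated 4 and 275 ± 7.65 CPM (SD, n = 3) in Mcu-/- with zymosan, against 759 ± 22.4 (n = 3) in Mcu-/- untreated 1 to 3 and 869 ± 20.3 (n = 5) in WT with zymosan. Cd68, a lysosomal glycoprotein, was high in the same 2 sets, at 972 and 1159 ± 16.6 CPM, against 255 ± 4.18 and 309 ± 12.0. The summed level of 4 B cell markers was 30.4 to 55.4 CPM in the WT libraries and Mcu-/- untreated 1 to 3, 18.1 in Mcu-/- untreated 4 and 12.4 to 13.3 in Mcu-/- with zymosan. That of 4 plasmacytoid dendritic cell markers was 3.63 to 6.55 CPM in the former libraries, 11.6 and 11.05 to 13.2 CPM, with 3 of the 4 under 1 CPM everywhere. The 6 markers of T and NK cells and 3 of mast cells were all under 1 CPM in every library, and the sum over 5 dendritic cell markers was at most 11.9 CPM, over 6 neutrophil markers at most 2.16 CPM, over 3 erythroid markers at most 0.657 CPM and over 5 stroma markers at most 57.3 CPM. In Mcu-/- against WT with zymosan, 3 of the 4 stroma markers tested were called higher and 1 lower. The 2 neutrophil markers tested were called lower in that comparison. The part of these differences in the results on Mcu-/- BMDMs was not tested. In these bulk libraries, fewer cells of a type and less RNA per cell cannot be told apart.

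**Figure D1:**
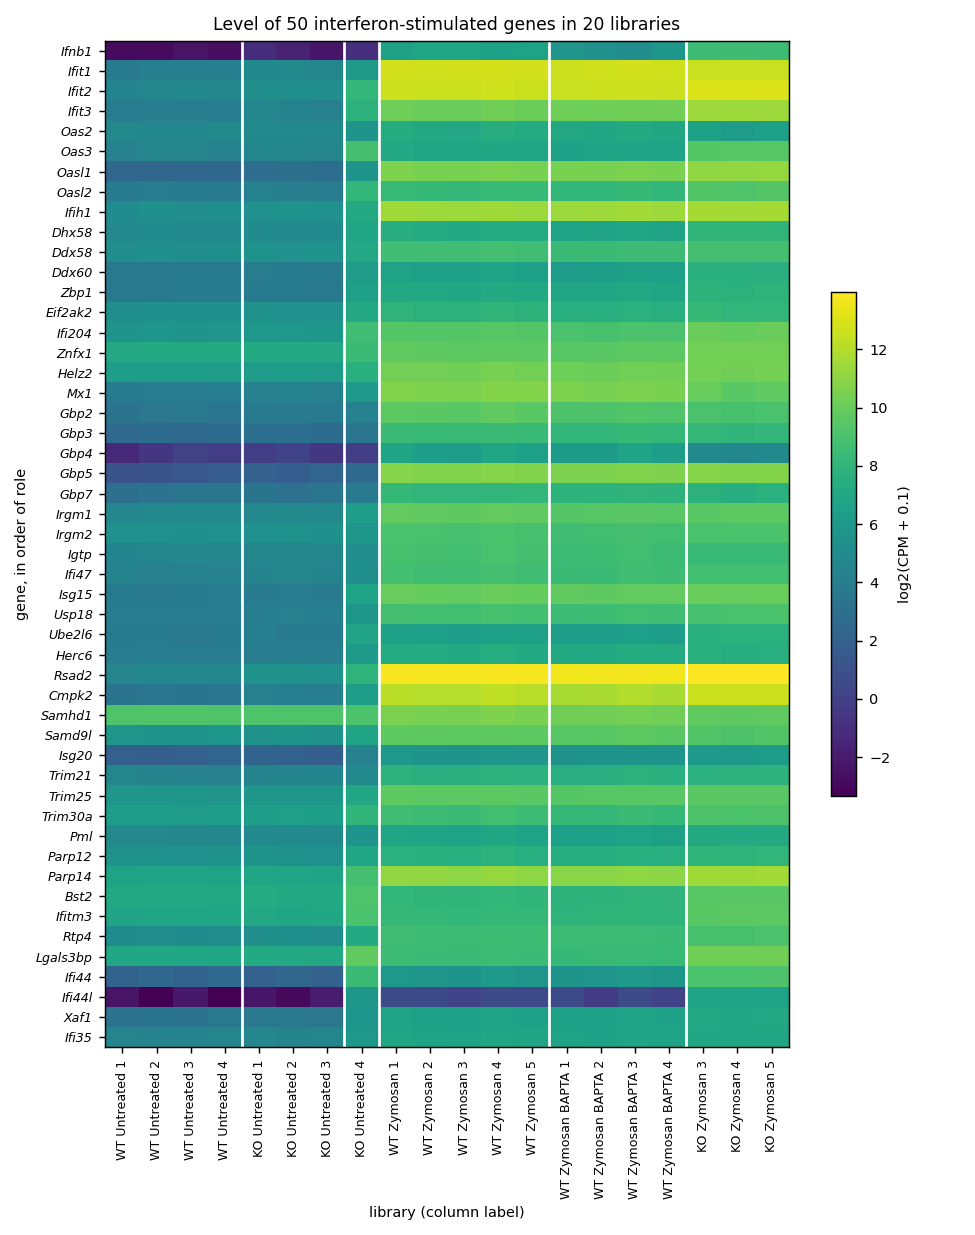
Level of the 50 genes (rows, in order of role) in each of the 20 libraries (columns; KO is Mcu-/-), as log2(CPM + 0.1), with white lines between groups. All 50 genes are brighter with zymosan, and Mcu-/- untreated replicate 4 lies between its group and the zymosan groups for most of them.

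Every member that was measured rose with zymosan in WT BMDMs. All 50 were called higher and 0 lower (edgeR quasi-likelihood test, Benjamini-Hochberg adjusted p under 0.05), with a median log2 fold change of 3.82. Over all 11666 genes tested, 37.2% were called higher and 41.3% lower, and the median was −0.04. With Mcu-/- untreated 4 in the fit, 49 members were called higher, against 32.4% of all genes higher and 36.8% lower. Levels did not overlap between untreated and zymosan libraries for any of the 50 members, against 33.2% of all genes without overlap and higher and 36.5% without overlap and lower.

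Ifnb1 had 1 or 2 counts in each WT untreated library and 93.6 to 112 CPM in the 5 WT zymosan libraries. Its pooled ratio was 1821, with a 95% interval from counting error alone of 780 to 5611. Among effectors, Gbp5 rose from 2.05, 2.12, 2.44 and 3.197 CPM to 1788, 1674, 1662, 1827 and 1646 CPM, or by 9.48 in log2 (SE 0.064, edgeR adjusted p = 1.05e-49). Rsad2 rose from 23.1, 26.7, 26.4 and 26.1 CPM to between 13255 and 14346 CPM (log2 fold change 9.06, SE 0.043). It was also the most abundant member per length with zymosan, at 3158 CPM per kilobase of exon, followed by Ifit1 at 2630 and Ifit2 at 1593. Cmpk2, a mitochondrial nucleotide kinase whose gene lies beside Rsad2 on chromosome 12, rose by a log2 of 8.71, Ifit1 by 8.69, Oasl1 by 8.11 and Ifit2 by 8.002. At the other end, Bst2 rose from 135 to 149 CPM untreated to 250 to 273 CPM (log2 fold change 0.85) and Samhd1, a dNTPase that restricts viral DNA synthesis, from 583 to 616 to 1367 to 1558 CPM (1.28). These 2 genes, with Lgals3bp and Ifitm3, were among the members already above 100 CPM without zymosan.

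By role, the 3 IFIT genes had a median log2 fold change of 8.002, the 5 guanylate-binding GTPases 6.08 and the 4 immunity-related GTPases 4.38. The 4 OAS genes had a median of 3.45, the 4 RNA-sensing helicases 3.14 and the 4 genes of the ISG15 system 4.10. The 4 genes for membrane and secreted proteins (Bst2, Ifitm3, Rtp4 and Lgals3bp) had the lowest median, 1.40. Of the transcripts of Ifit3, 51.2% of all 50-base stretches also occur in Ifit3b, so that reads of these 2 genes may be split or lost between them. For every other member 20% or less was shared with any other gene, with 20% in Ifi204. The gene models of Igtp and Irgm2 overlap on the same strand over 7974 bases of chromosome 11, and their separation is uncertain.

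Without zymosan, a small part of the members was already higher in Mcu-/- than in WT BMDMs. Over replicates 1 to 3, 14 of 50 members (28.0%) were called higher and 0 lower, while 1.53% of all genes were called higher and 1.83% lower. The 14 were the 3 IFIT genes, Oasl1, the helicase genes Ifih1 and Ddx58, the DNA-binding Ifi204, the dynamin-like Mx1, Gbp5, Rsad2, Cmpk2, Bst2, Rtp4 and Lgals3bp. Their folds were from 1.10 to 1.75, each below the fold of the same gene with zymosan in WT. An unadjusted p under 0.05 was found for 26 members, against 14.5% of all genes, and DESeq2's Wald test called 16 members higher and 0 lower, against 1.53% and 1.98% of all genes. The genotypes did not overlap for 23 members, all higher, against 6.72% of all genes higher and 7.15% lower.

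Rsad2 was at 45.9, 45.2 and 42.5 CPM in Mcu-/- replicates 1 to 3, above the 4 WT values of 23.1 to 26.7 CPM, and differed by 0.80 in log2 (SE 0.046, edgeR adjusted p = 1.16e-15). Gbp5 was at 4.29, 3.52 and 4.85 CPM against 2.05 to 3.197 CPM (0.81, SE 0.14, edgeR adjusted p = 0.000167). Ifit1 was at 26.1, 28.2 and 24.6 CPM against 14.7, 17.8, 17.5 and 17.6 CPM (0.64, SE 0.053, edgeR adjusted p = 4.69e-11). In none of these 3 genes did the groups overlap. Cmpk2 differed by 0.71, Ifit2 by 0.63, Oasl1 by 0.50, Ifit3 by 0.45 and Mx1 by 0.35. In contrast, Isg15, a ubiquitin-like modifier, was at 13.7 to 15.5 CPM in Mcu-/- and 12.3 to 14.9 CPM in WT, and did not pass the test (0.08, edgeR adjusted p = 0.636). Usp18, which removes ISG15 and dampens receptor signalling, was at 16.6 to 18.3 against 14.97 to 15.7 CPM and did not pass either (0.16, edgeR adjusted p = 0.228). Gbp2, Irgm1 and Igtp also missed the threshold, at 0.30, 0.05 and 0.03. Ifnb1 had 19 counts in the 3 Mcu-/- libraries together and 5 in the 4 WT libraries, a ratio of 4.06 with a 95% counting interval of 1.47 to 13.9, and was not called (edgeR adjusted p = 0.365).

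The count rests on which libraries are fitted. With Mcu-/- untreated 4 included, 2 members were called higher (Ifit1 and Gbp5), against 0.128% of all genes higher and 0.222% lower. The biological coefficient of variation over all genes was 12.4% with that library and 3.56% without it. Without WT untreated replicate 1, in which Ifit1 and Rsad2 were lowest of the group, 9 were called.

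**Figure D2:**
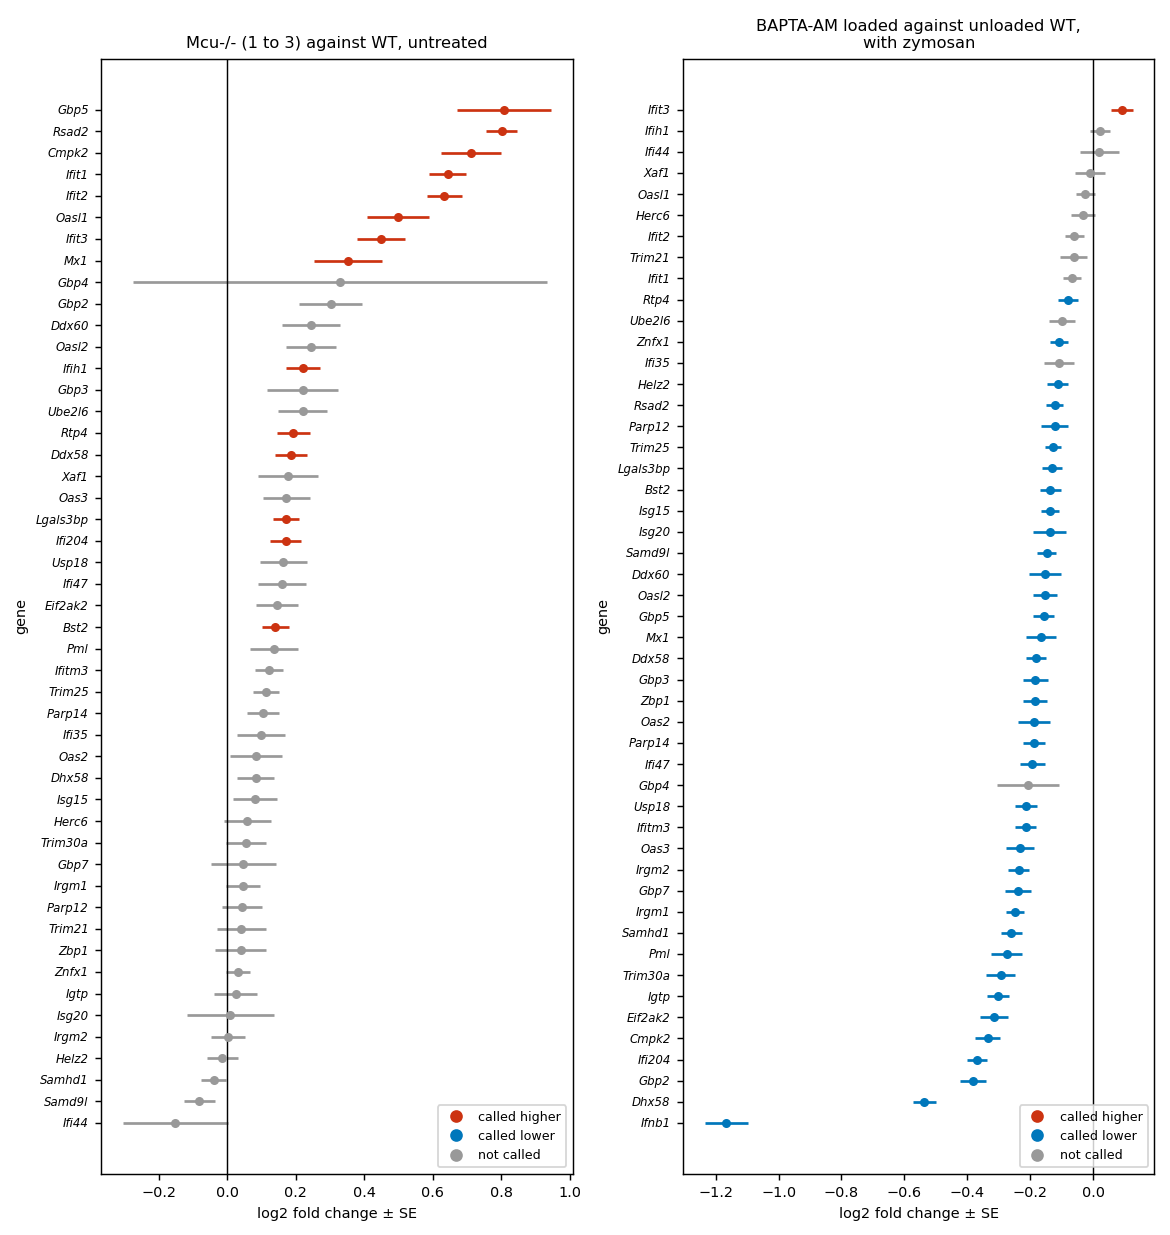
Log2 fold change with its SE for each gene, for untreated Mcu-/- replicates 1 to 3 against WT (left, without Ifnb1 and Ifi44l, which were near 1 count) and for BAPTA-AM loaded against unloaded WT BMDMs with zymosan (right, without Ifi44l). Genes called higher are red, lower blue and not called grey. On the left 14 genes are red and none is blue, and on the right 37 are blue and 1 is red.

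Mcu-/- untreated 4 carried most of the members at far higher levels than the other untreated libraries. It was above all 4 WT untreated libraries for 48 of the 50 members, against 44.7% of all genes tested, and at least 2-fold above their mean for 39, against 7.73%. Its gap to replicates 1 to 3, as a share of the range of the 4, passed Dixon's 95% critical value for 42 members, against 27.1% of all genes, and this library was set apart for its distance over all genes. The median log2 difference to the WT mean was 1.96 in this library and 0.11 to 0.18 in Mcu-/- replicates 1 to 3. The members differed in how far they moved. Ifi44 was at 347 CPM in replicate 4 and 4.03, 5.19 and 4.27 CPM in replicates 1 to 3. Its neighbour on chromosome 3, Ifi44l, was at 55.6 CPM against 0.111, 0.0355 and 0.146 CPM, Oas3 at 475 against 23.7 to 26.2 CPM, and Lgals3bp at 848 against 137 to 153 CPM. All guanylate-binding and immunity-related GTPase genes differed by less than that median of 1.96. Gbp5 was at 5.96 CPM in replicate 4, Gbp4 at 0.834, Gbp2 at 20.2, Igtp at 35.2 and Irgm2 at 55.7 CPM, and Irgm1, with the largest difference among the genes of its family, was at 78.4 CPM against 27.7 to 29.8 CPM. Ifnb1 was at 0.397 CPM. Samhd1, at 545 CPM, was below all 4 WT untreated libraries. For 9 members replicate 4 was within a log2 of 1 of the mean of Mcu-/- BMDMs with zymosan: Bst2 (0.35 below it), Lgals3bp (0.49), Oas3 (0.56), Ifitm3 (0.61), Samhd1 (0.63), Ifi44 (0.66), Oas2 (0.80), Ifi44l (0.88) and Ube2l6 (0.90). Ifnb1 was 9.89, Gbp5 8.18, Ifit1 6.48 and Rsad2 6.02 below. Replicate 4 is a single library, so these values have no replicate check. The share of all genes within that distance is not given here, so the 9 are a description of these members only. Among them, Samhd1 was no farther from the Mcu-/- zymosan mean in Mcu-/- untreated 1 to 3, at 577 to 593 CPM against 845 CPM.

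**Figure D3:**
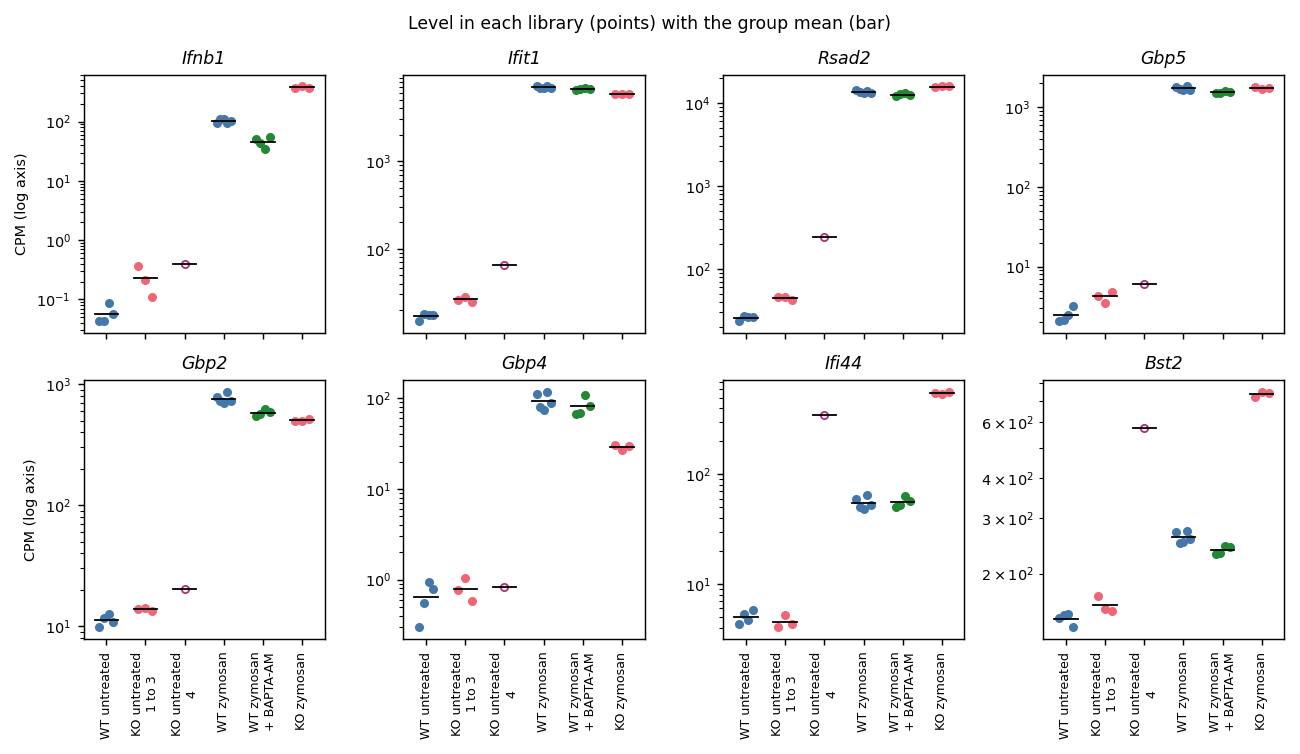
Level in each library (points, CPM on a log axis) of 8 members by group, with the group mean as a bar and Mcu-/- untreated replicate 4 as an open circle. Ifi44 and Bst2 are near the level of Mcu-/- BMDMs with zymosan in that library, whereas Ifnb1, Gbp2, Gbp4 and Gbp5 are near the untreated level.

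With zymosan, Mcu-/- BMDMs had more Ifnb1 and more of most members than WT BMDMs, while the GTPase genes were lower or did not pass the test. Of 50 members, 33 (66.0%) were called higher and 11 (22.0%) lower, against 36.4% of all genes higher and 33.7% lower, so that the share lower was under that over all genes. The median log2 fold change of the members was 0.29. With Mcu-/- untreated 4 in the fit, whose levels enter the spread but not these means, 12 were called higher and 8 lower, against 31.8% and 30.3% of all genes. The 2 sets of libraries did not overlap for 42 members, of which 31 were higher and 11 lower, against 33.1% of all genes without overlap and higher and 30.9% lower.

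Ifnb1 was at 368, 393 and 368 CPM in Mcu-/- and 94.0, 112, 112, 93.6 and 103 CPM in WT, and differed by 1.87 in log2 (SE 0.061, edgeR adjusted p = 3.84e-26). Ifi44l had the largest difference, 6.24 (SE 0.094), with 99.0 to 105 CPM in Mcu-/- and 1.02 to 1.54 CPM in WT. Ifi44 was at 546, 534 and 562 CPM against 59.9, 50.3, 48.2, 64.6 and 52.6 CPM (3.31, SE 0.057). Both genes encode cytoplasmic proteins induced by interferon whose action is little known. Oas3, which makes the 2-5A activators of RNase L, was higher by 2.52, the secreted Lgals3bp by 1.73, Bst2 by 1.5, the antiviral membrane protein gene Ifitm3 by 1.42, Ifit3 by 1.31, the ISG15-conjugating enzyme gene Ube2l6 by 1.21 and the helicase gene Ddx60 by 1.06. Of these genes, Ifi44l, Ifi44, Oas3, Lgals3bp, Bst2, Ifitm3 and Ube2l6 were among the 9 whose level in untreated replicate 4 was within a log2 of 1 of the Mcu-/- zymosan mean. Ifnb1 was not among them, and the 9 have no share over all genes beside them. Smaller differences were found for Oasl1 (0.64), Rsad2 (0.20) and Usp18 (0.17), each called.

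The 11 lower members were Gbp4 (−1.69, SE 0.12), Mx1 (−0.94), Oas2 (−0.89), Samhd1 (−0.78), Gbp2 (−0.59), Igtp (−0.52), Gbp7 (−0.46), Samd9l (−0.42), Ifit1 (−0.26), Gbp3 (−0.26) and Irgm1 (−0.16). Gbp4 was at 30.9, 26.7 and 29.6 CPM in Mcu-/- and 111, 80.1, 74.9, 117 and 88.3 CPM in WT. Gbp2 was at 499, 494 and 517 CPM against 781, 727, 699, 860 and 725 CPM (edgeR adjusted p = 2.14e-14). Igtp was at 337, 318 and 331 CPM against 480, 465, 442, 507 and 465 CPM. No value of these 3 genes overlapped between genotypes. Of the 5 guanylate-binding GTPases 4 were lower, and of the 4 immunity-related GTPases 2 were lower and none higher. Over all genes 33.7% were lower and 36.4% higher, and groups of 4 or 5 genes are too small to set against those shares. Gbp5 (0.01, edgeR adjusted p = 0.796) and Isg15 (0.03, edgeR adjusted p = 0.401) did not pass the test. Neighbouring genes of a family could go in opposite directions, as Oas2 and Oas3, which lie side by side on chromosome 5, differed by −0.89 and 2.52. Likewise Ifit1 was lower and Ifit2 (0.41) and Ifit3 higher.

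**Figure D4:**
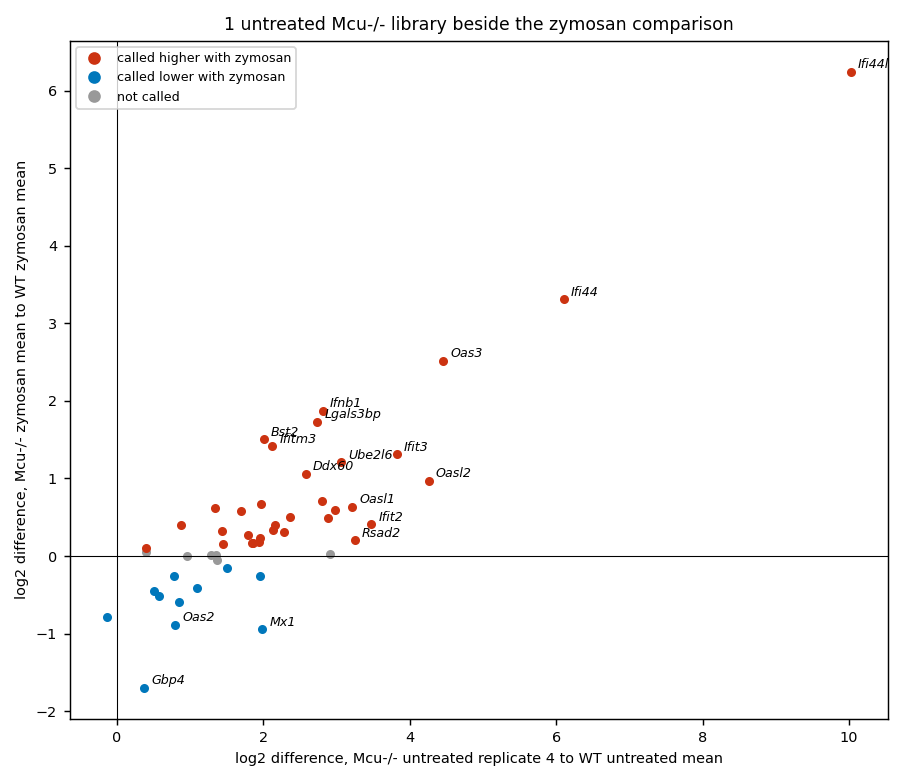
Log2 difference of each gene in untreated Mcu-/- replicate 4 to the WT untreated mean (horizontal) and of the Mcu-/- zymosan mean to the WT zymosan mean (vertical), coloured by the call with zymosan. The 2 differences share no library, and genes high on one axis tend to be high on the other, up to Ifi44l at 10.02 and 6.24.

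Across the 50 members, the difference of replicate 4 to WT untreated and the difference of Mcu-/- to WT with zymosan were correlated (Pearson r = 0.884, Spearman rho = 0.762, and r = 0.707 without Ifi44 and Ifi44l). Over all genes this correlation is not given here, so it cannot be called particular to these members. The points are genes measured in the same libraries and not independent replicates. The same libraries also shared the levels of Itgam, Cd68 and the B cell markers given above.

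The responses to zymosan of both genotypes were large for all 50 members. In Mcu-/- BMDMs, measured from untreated 1 to 3, all 50 were called higher, with a median log2 fold change of 4.08 (39.2% of all genes higher, 42.4% lower), except that Samhd1 was at −0.013 and not called where library totals replaced TMM. The same count was reached with replicate 4 in the fit (34.3% and 39.4%). None overlapped between untreated 1 to 3 and zymosan, against 39.8% of all genes without overlap and higher and 42.9% lower. Measured from replicate 4 alone, the median difference was 2.13 and no member was below it. The comparison of the 2 responses depends on that library. Without it, 20 members (40.0%) had a larger response in Mcu-/- than in WT and 15 (30.0%) a smaller one. Over all genes the shares were 31.0% and 29.3%, so that the share smaller was near that over all genes. The median difference was 0.06. With it, 0 were larger and 12 smaller, against 15.2% and 20% of all genes, 18 members had an unadjusted p under 0.05 (45.5% of all genes), and the median was −0.63. Of the 20 larger, 15 changed sign when replicate 4 was included, among them Ifi44, Oas3 and Ifi44l.

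The smaller responses kept their direction, but for most members this is no check. Replicate 4 was above the other 3 untreated Mcu-/- libraries for 48 members, which did not include Gbp4 and Samhd1. Including it lowers the response difference of those 48, so a negative difference among them stays negative. Gbp4 differed by −2.02 (SE 0.63) without and −2.04 with replicate 4, Mx1 by −1.30 and −1.90, Ifit1 by −0.91 and −1.36, Gbp2 by −0.89 and −1.05, Gbp5 by −0.80 and −0.93, and Rsad2 by −0.60 and −1.68, all called in both fits. All 12 members called smaller with replicate 4 were also called smaller without it. A higher level in untreated Mcu-/- BMDMs enters the differences of Gbp5, Rsad2, Ifit1 and Mx1. With zymosan, Rsad2 was higher than in WT and Gbp5 not called. Ifit1 differed between genotypes by 0.64 in log2 untreated and −0.26 with zymosan, and Mx1 by 0.35 and −0.94. For Ifnb1 the responses did not differ by the test (−0.04), with untreated levels of a few counts. These comparisons share the untreated and zymosan libraries with those above.

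**Figure D5:**
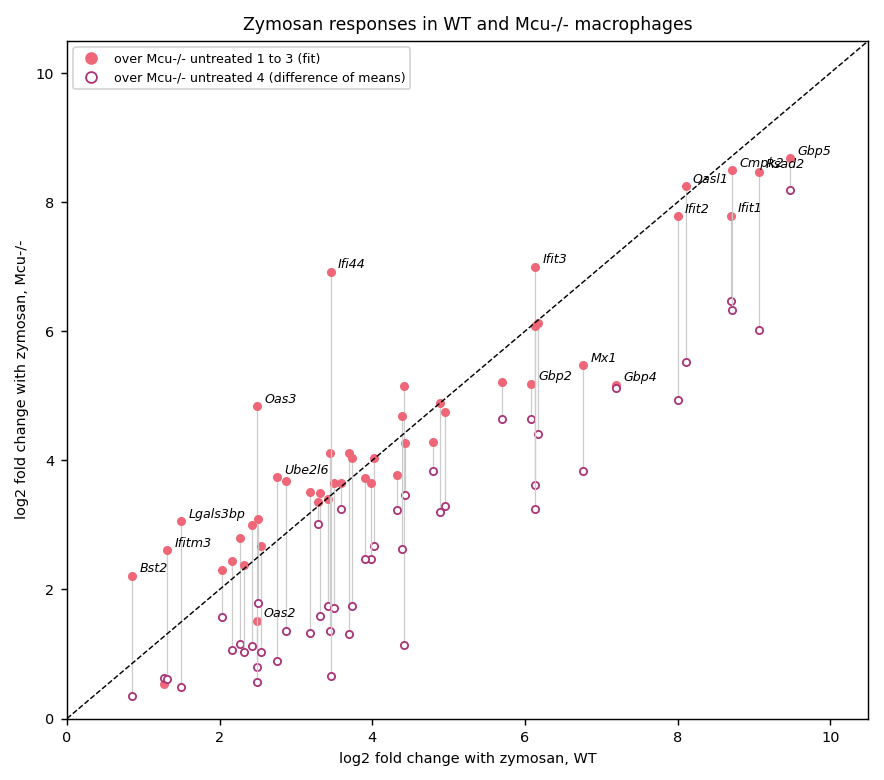
Log2 fold change with zymosan in WT (horizontal) and in Mcu-/- BMDMs (vertical), measured from untreated Mcu-/- replicates 1 to 3 (filled) or from replicate 4 (open), without Ifnb1 and Ifi44l. Dashed is equality. The filled points lie on both sides of it and the open points below it.

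Most members were a little lower with BAPTA-AM, and Ifnb1 was lower by more. In WT BMDMs with zymosan, 37 of 50 members (74.0%) were called lower and 1 (2.0%) higher, against 16.5% and 15.3% of all genes, with a median log2 fold change of −0.16. With replicate 4 in the fit, 5 were called lower (Ifnb1, Gbp2, Irgm2, Igtp and Samhd1) and 0 higher, against 6.33% and 6.43% of all genes, and 7 members had an unadjusted p under 0.05, against 25.5% of all genes. This contrast uses no Mcu-/- library, and its median was −0.16 in both fits. Levels did not overlap for 25 members, all lower, against 13.3% of all genes without overlap and lower and 11.1% higher.

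Ifnb1 was at 50.98, 42.7, 34.8 and 53.8 CPM with BAPTA-AM and 93.6 to 112 CPM without it, a difference of −1.17 in log2 (SE 0.069, edgeR adjusted p = 1.24e-16). It was the only member to fall by more than a log2 of 1. Next was Dhx58, the helicase gene that modulates RIG-I and MDA5, at 106, 107, 118 and 111 CPM against 174, 158, 154, 159 and 156 CPM (−0.54, SE 0.037). The groups did not overlap in either gene. Gbp2 fell to 550, 563, 629 and 586 CPM (−0.38), Ifi204 to 498 to 539 CPM from 634 to 714 CPM (−0.37) and Cmpk2 to 3323 to 3920 CPM from 4137 to 4946 CPM (−0.34). All 4 immunity-related GTPases were called lower, from −0.19 to −0.30, as were 4 of the 5 guanylate-binding GTPases, against 16.5% of all genes.

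Ifit1, Ifit2 and Oasl1 did not pass the test. Ifit1 was at 6485 to 6933 CPM with BAPTA-AM and 6833 to 7170 CPM without (−0.07, edgeR adjusted p = 0.0599), Oasl1 at 1410 to 1513 and 1401 to 1570 CPM (−0.03) and Ifit2 differed by −0.06. Ifit3, the single gene called higher, was at 1136 to 1193 CPM against 1033 to 1189 CPM (0.09, edgeR adjusted p = 0.0420), with overlapping groups. Rsad2 fell by 0.12, Isg15 by 0.14, Gbp5 by 0.16, Usp18 by 0.21 and Irgm1 by 0.25 on the log2 scale, each called. The 4 members grouped as other (Ifi44, Ifi44l, Xaf1 and Ifi35) included none that was called.

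The comparisons of Mcu-/- and of BAPTA-AM with WT zymosan share the 5 WT zymosan libraries, so their values are set side by side only. Ifnb1 was higher by 1.87 in the former and lower by 1.17 in the latter. Gbp2 was lower in both, by 0.59 and 0.38, as was Igtp, by 0.52 and 0.30. Oas3 was higher by 2.52 and lower by 0.23, and Bst2 higher by 1.5 and lower by 0.14.

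Other genes of the pathway were taken from 5 lists, which share a few genes such as Irf7. The shares of all genes called higher and lower, against which their counts are to be read, were 37.2% and 41.3% with zymosan in WT, 36.4% and 33.7% for Mcu-/- against WT with zymosan, and 15.3% and 16.5% with BAPTA-AM. With zymosan in WT, 11 of 16 receptor and JAK-STAT genes were higher and 4 lower, 6 of 9 interferon regulatory factor genes higher and 3 lower, 15 of 19 genes acting upstream of Ifnb1 higher and 4 lower, and 92 of 96 other interferon-stimulated genes higher and 1 lower. Of 21 interferon genes in the table, 3 were tested (Ifnb1, Ifna2 and Ifna5), and all were called higher with zymosan in both genotypes and higher in Mcu-/- than in WT BMDMs with zymosan. Ifna5 was at 6.93 ± 0.600 CPM (n = 3) in Mcu-/- and 0.645 ± 0.172 CPM (n = 5) in WT. Only Ifnb1 of the 3 was called lower with BAPTA-AM, and a level as low as that of Ifna5 in WT leaves little room to see a fall. A gene can pass the filter on low counts through a single group where it is high. The directions called for genes that are low elsewhere, as Ifna5 is, are therefore a description only. Of 16 receptor and JAK-STAT genes tested, 7 were higher and 5 lower in Mcu-/- with zymosan (36.4% and 33.7% of all genes), with Ifnar1 lower by 0.54, Ifnar2 higher by 0.64 and Ifngr1, of the interferon-γ receptor, higher by 1.24. Stat2 and Irf9, which encode factors that bind the ISRE, were at −0.01 (not called) and 0.14 (called). Irf7, the factor that amplifies type I interferon, was at 913 ± 14.3 CPM against 370 ± 24.3 CPM in WT (1.31), and at 583 CPM in Mcu-/- untreated 4, with which in the fit it was not called (edgeR adjusted p = 0.105). With BAPTA-AM, 2 of the 16 were higher and 9 lower, and Irf7 was lower by 0.29. The feedback inhibitor gene Socs1 was called in neither comparison.

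Of 9 interferon regulatory factor genes tested, 3 were higher and 4 lower in Mcu-/- with zymosan, and 2 were higher and 4 lower with BAPTA-AM. Of 19 genes that act upstream of Ifnb1, 7 were higher and 8 lower in the first comparison (36.4% and 33.7% of all genes), and 3 higher and 8 lower in the second (15.3% and 16.5%). Of 96 other interferon-stimulated genes, 58 were higher and 23 lower in the first, and 0 higher and 66 lower in the second. With Mcu-/- untreated 4 in the fit these 96 had 31 higher and 14 lower in the first, against 31.8% and 30.3% of all genes. In the second they had 0 higher and 11 lower with that library, against 6.43% and 6.33% of all genes. Untreated Mcu-/- replicates 1 to 3 had 13 of these 96 higher and 0 lower, against 1.53% and 1.83% of all genes. With replicate 4 in the fit 1 was higher, against 0.128% of all genes. Among the 13 was Cxcl10, a chemokine that attracts T cells, at 10.7 ± 1.14 CPM (n = 3) against 4.36 ± 0.542 CPM (n = 4) in WT (1.30, edgeR adjusted p = 9.12e-14). Replicate 4 was at 13.5 CPM, and Cxcl10 was also called with it in the fit.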

How the data were processed

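RNA of 20 libraries of WT and Mcu-/- BMDMs was analysed. The authors removed adaptors with cutadapt, mapped paired-end reads to mm10 with STAR, counted reads per gene with HTSeq and deposited whole-number counts without normalization. Groups come from the labels. Columns of Mcu-/- BMDMs with zymosan bear the numbers 3, 4 and 5, those of the labels being 1 to 3, and the text uses the column numbers. Labels call the libraries biological replicates but do not tie them to animals, so p-values measure the spread between these libraries.

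The analysis used edgeR 4.0.16 and DESeq2 1.42.0 under R 4.3.3, and figures were drawn with matplotlib. Genes passing filterByExpr (11666) were fitted with TMM scaling and 1 coefficient per group, by edgeR's quasi-likelihood model, over 19 libraries (Mcu-/- untreated 4 left out), with Benjamini-Hochberg adjusted p under 0.05 over all genes as a call. The biological coefficient of variation was 3.56%, and 12.4% over all 20 libraries. Ratios to groups of a few counts are pooled, with exact 95% intervals that cover counting error only. Gene models are GENCODE M21. Any member could be named. Values by library were given for the members of largest change in each comparison and for Ifnb1, Isg15, Ifit1, Rsad2, Usp18, Oasl1, Gbp2, Gbp5, Irgm1 and Igtp. The members and lists were chosen with earlier results of these data known. A single gene that belongs to these lists is not reported here, although counts over the lists include it. Scripts were tested on simulated data. Alternatives were all 20 libraries, DESeq2's size factors, other filters, DESeq2's Wald test, the groups alone, the replicate number as a block, a minimum log2 fold change of 1, library totals, and leaving out each library.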

Additional observations from a re-analysis of the deposited data

Results flagged for a closer look

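Mcu-/- untreated replicate 4 lay far from the other 3 libraries of its group. Its median log2 difference over the members to the WT untreated mean was 1.96, and for 42 of the 50 members its gap to the others, as a share of the range of the 4, passed Dixon's 95% critical value, against 27.1% of all genes tested.

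The zymosan response was larger in Mcu-/- than in WT BMDMs for 20 members (40.0%) and smaller for 15 (30.0%). These are calls by the test of the difference itself (edgeR, without Mcu-/- untreated 4), against 31.0% and 29.3% of all genes. The share smaller was near that over all genes. The counts with that library are given above.

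Outside that group, 7 of 150 sets of 4 or 5 libraries passed Dixon's value, and chance flags about 1 in 20. WT untreated 1 was low for Ifit1 (14.7 CPM) and Rsad2 (23.1 CPM), and WT untreated 2 was low for Ifi35 (19.7 CPM). WT zymosan 1 was high for Dhx58 (174 CPM) and WT zymosan 4 for Ddx58 (443 CPM). With BAPTA-AM, library 3 was high for Samhd1 (1310 CPM) and library 1 low for Isg20 (47.9 CPM).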

How the results depend on the processing

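Members called kept within 1.5 times of the counts above under every alternative not named here. With all 20 libraries the counts were 2 higher for Mcu-/- against WT untreated, 12 higher for Mcu-/- against WT with zymosan, 0 higher and 5 lower with BAPTA-AM, and 0 larger responses. With a minimum log2 fold change of 1 they were 0 higher untreated, 10 higher and 1 lower with zymosan, 0 higher and 1 lower with BAPTA-AM, and 6 larger and 2 smaller responses. Without the filter 22 were higher untreated. Shares of all genes with the minimum fold change or without the filter are not given here. Those counts therefore show only how the calls moved. The single gene higher with BAPTA-AM was lost (0) with DESeq2's size factors, DESeq2's Wald test and the replicate block.

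Leaving out 1 library gave 9 to 16 members higher untreated (9 without WT untreated 1), 32 to 33 higher and 11 to 12 lower with zymosan, 0 to 1 higher and 31 to 41 lower with BAPTA-AM, and 19 to 23 larger and 15 to 17 smaller responses. With all 20 libraries the response difference turned negative for Dhx58 (−0.15), Ube2l6 (−0.35), Zbp1 (−0.62), Ifi44 (−0.85), Oasl2 (−1.53), Trim30a (−0.090), Oas3 (−0.14), Rtp4 (−0.62), Parp14 (−0.55), Ddx60 (−0.18), Parp12 (−0.20), Ifi44l (−1.54), Xaf1 (−0.58), Ifi204 (−0.89) and Ifit3 (−0.88). Library totals in place of TMM moved the median of all genes to −0.53 for the WT zymosan response and −0.59 for that of Mcu-/-, and Samhd1 in the latter to −0.013. With them 11 of the 38 BAPTA-AM calls were lost.

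The replicate numbers did not pair the libraries, as same-numbered libraries of different groups deviated with correlations of −0.088 to 0.074. With the number as a block, 50 members were called higher for zymosan in WT, 14 higher for Mcu-/- against WT untreated and 36 lower with BAPTA-AM. In the 150 bases before the start, the ISRE core was held by 34.1% of members, the GAS core by 14.6% and the kappa B core by 2.44%.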
